A study of Homo sapiens with 19 samples.

Results

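The 10 genes described here encode the MHC class II antigen presentation system: CIITA, the invariant chain gene CD74, the classical class II genes HLA-DRA, HLA-DRB1, HLA-DQA1, HLA-DQB1, HLA-DPA1 and HLA-DPB1, and the peptide-loading genes HLA-DMA and HLA-DMB. They were chosen by name among 20046 protein-coding genes of GENCODE release 44 on hg38, and all 10 were found in that annotation. Peaks of 12 lists were collected within 10 kb of each gene's start and over each gene body, and overlapping windows were counted once. Of the 10 genes, 5 had at least 1 peak there in at least 1 list (CIITA, CD74, HLA-DQA1, HLA-DMA and HLA-DMB) and 5 had none. For scale, 29.0% of the 20046 genes had no peak of any list within 10 kb of the 5′ end.

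MHC class II molecules are paired alpha and beta chains that display peptides from endocytosed proteins to CD4 T cells, and they are made mainly by dendritic cells, B cells, monocytes and macrophages. Their genes share a short promoter block of X and Y boxes, bound by the RFX complex, CREB and NF-Y, and they are transcribed when these factors recruit the coactivator CIITA. CIITA itself is the regulated step and is read from alternative promoters in different cell types. CD74, the invariant chain, guards the peptide groove during transport, and HLA-DM, the dimer of the HLA-DMA and HLA-DMB proteins, exchanges the last invariant chain fragment for a peptide. In acute myeloid leukaemia, loss of class II on the blasts is known as a route of escape after transplantation.

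MOLM-13, an established line from a human acute monocytic leukaemia, was profiled by CUT&RUN, in which an antibody-directed nuclease releases the DNA that carries a histone mark. Cells had been given Corin, a dual inhibitor of the demethylase LSD1 and of the HDACs that work with it in CoREST, or the vehicle DMSO, at a labelled 0.1 µM for 24 h. The marks were H3K27ac (active promoters and enhancers), H3K4me2 (promoters and enhancers, removed by LSD1) and H3K4me3 (mainly promoters). Each mark was read in 2 Corin and 2 DMSO libraries, so 12 of the 19 libraries of the series were used. The other 7, which include retinoic acid with Corin, LSD1 and IgG, were not analysed here. All groups are the same unmodified cell line, and the labels do not say whether the libraries of a group came from separate cultures, so the spread given may be technical.

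The lists differ in size with the treatment, which bears on every result below. H3K27ac lists held 34424 and 30029 peaks with Corin and 17599 and 19995 with DMSO, H3K4me2 lists held 41152 and 40042 against 30896 and 32299, and H3K4me3 lists held 11757 and 11883 against 11104 and 11343. Read depth cannot be recovered from these lists, and its part in the results was not tested. As a check of the labelled cell type in the DMSO libraries, 7 of 9 myeloid and leukaemia genes had H3K4me3 or H3K27ac within 500 bp of the start in both libraries, against 0 of 6 B cell genes, 0 of 3 T cell genes and 1 of 4 dendritic cell genes (IRF8). The share of all genes that meet this criterion is not given here, so these counts are a description only.

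The quantity compared is the number of bp under peaks in a window, per library. A gene was called higher when both Corin libraries exceeded both DMSO libraries. With 2 libraries against 2, an exact two-sided permutation test cannot give a p below 0.333, so no single gene can pass 0.05 by that test, and the text gives the values of every library. The window was first set around the 5′ end of the GENCODE gene. For 3 of the genes this lies far from the start of the MANE Select transcript, the transcript that GENCODE and RefSeq jointly take as representative: 10980 bp away at CIITA, 9227 bp at HLA-DQA1 and 15997 bp at HLA-DMA. Values for the window around the MANE Select start, called the main start site here, are therefore given beside those for the gene 5′ end. HLA-DPA1 has no MANE Select transcript in this annotation, and its gene 5′ end was used.

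In the windows around the gene 5′ end, H3K27ac was higher with Corin at 4 of the 4 genes that had any (CIITA, CD74, HLA-DMA and HLA-DMB), where 54.5% of 10545 covered genes were higher. H3K4me2 was higher at 5 of 5 genes with any, the same 4 and HLA-DQA1, where 39.5% of 14079 covered genes were higher. In 5 kb windows the HLA-DMA groups overlapped for this mark, at 6540 and 6302 bp with Corin and 5784 and 6514 bp with DMSO. HLA-DQA1 had no H3K4me2 in either DMSO library and was covered through its Corin peaks alone, so it could not have been lower and its place in this count is no support for a rise. H3K4me3 was higher at 2 of 3, CD74 and HLA-DMA, where 25.7% of 11193 covered genes were higher. With the same number of top-scoring peaks taken from each list of a mark (the matched number), the counts were 3 of 4 for H3K27ac, without CD74, 5 of 5 for H3K4me2 and 2 of 2 for H3K4me3. Of all covered genes 35.3%, 31.3% and 24.3% were then higher. No gene of the 10 was lower in any mark, around the 5′ end or the main start site. Of all covered genes, 0.654%, 3.83% and 8.28% were lower around the 5′ end and 0.59%, 3.92% and 8.37% around the main start site. With so few covered genes, and a rise common to much of the genome, the counts alone do not set these genes apart. The median difference over the covered genes of the set was 1598.75 bp for H3K27ac, 938.5 bp for H3K4me2 and 219.5 bp for H3K4me3, beside 444.0, 233.5 and 63.5 bp over all covered genes. Over all 10 genes, with those without peaks at 0, it was 0.0, 443.5 and 0.0 bp. The window of HLA-DMA lies over another gene's promoter, as described below, and without it the H3K27ac median of the covered genes was 908.0 bp. Around the main start sites, the counts were 4 of 4 for H3K27ac, 4 of 4 for H3K4me2 and 1 of 3 for H3K4me3, with shares of 54.5%, 39.6% and 25.8% of all covered genes. These counts are not over separate loci, because HLA-DMA and HLA-DMB share the stretch between them: the H3K27ac counted for HLA-DMA is the region upstream of HLA-DMB, and 1 DMSO peak of 202 bp gave both genes their H3K4me3.

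**Figure D1:**
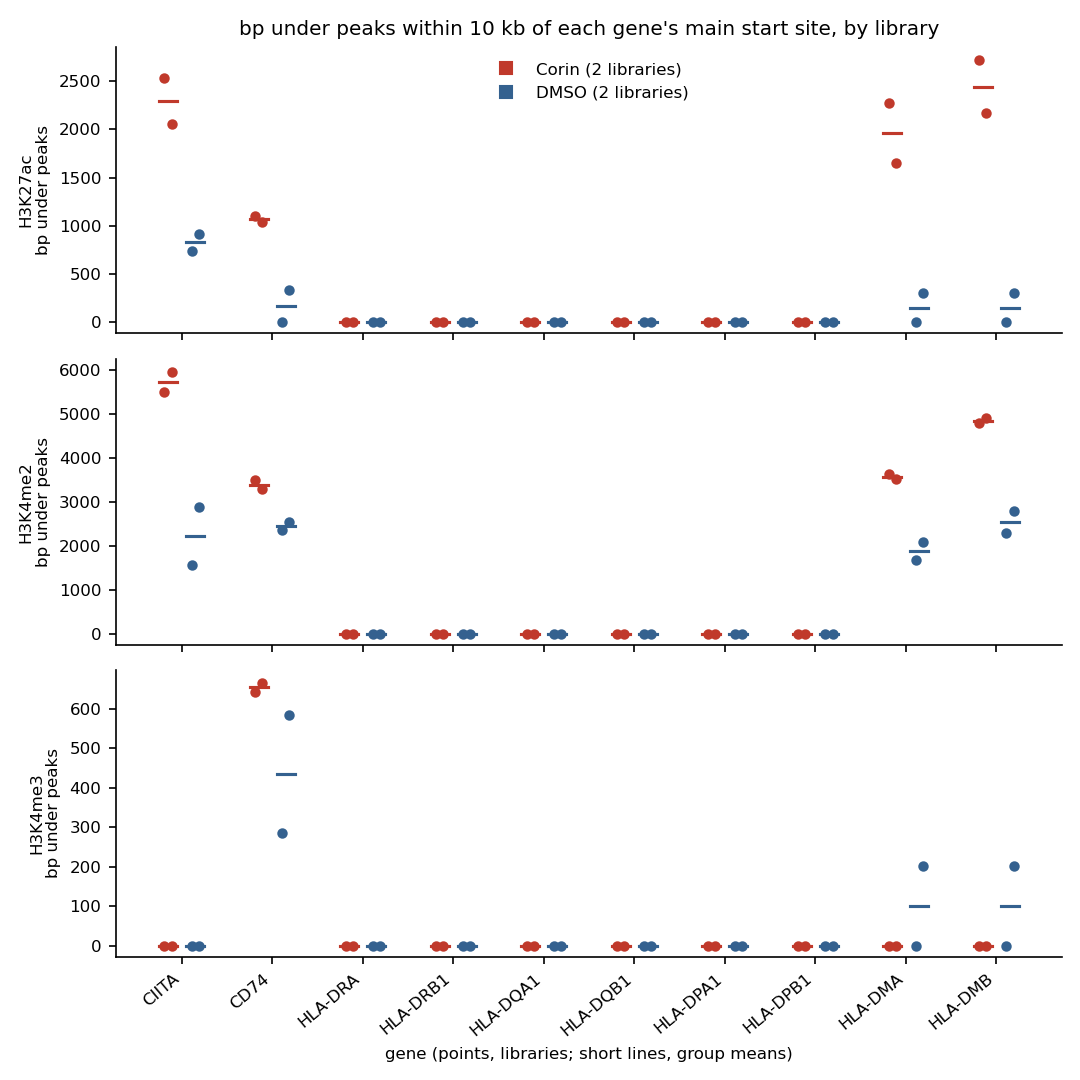
Each point is the number of bp under peaks (vertical axis, bp, linear) in 1 library within 10 kb of the main start site of each of the 10 genes, for H3K27ac, H3K4me2 and H3K4me3 from top to bottom; short lines are the means of 2 libraries. CIITA, CD74, HLA-DMA and HLA-DMB had both Corin points above both DMSO points for H3K27ac and H3K4me2, and the 6 genes between them were at 0 in all libraries.

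CIITA (chromosome 16, plus strand, 10866222 to 10943021), the coactivator on which the other genes depend, had no H3K4me3 at its start in any library, and its H3K4me2 spread over the start with Corin. Within 10 kb of its main start site at 10877202, H3K4me2 covered 5489 and 5953 bp in the Corin libraries and 1555 and 2892 bp in the DMSO libraries, a difference of 3497.5 bp with an SD of 1001. The lowest Corin library lay above the highest DMSO library by far more than the Corin libraries differed from each other, while the DMSO libraries differed widely. Of 14261 genes covered by H3K4me2 in such a window, 18 (0.126%) had a rise at least as large. H3K27ac covered 2531 and 2059 bp with Corin and 743 and 914 bp with DMSO, a difference of 1466.5 bp (SD 355), a rise that 10.7% of 10669 covered genes equalled or exceeded. Around the gene 5′ end, where no start of a basic transcript lies, the differences were smaller, at 887.5 bp (SD 396) for H3K4me2 and 838.5 bp (SD 146) for H3K27ac. Rises at least as large were seen there at 12.6% and 25.5% of covered genes, so the rank of CIITA depends on the window.

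The rise at CIITA came from several separate places. The main start site lay in an H3K4me2 region of 2860 bp (10876404 to 10879263) with 2316 and 2834 bp under peaks with Corin, 0 in the first DMSO library and 578 bp in the second. The start base itself was under an H3K4me2 peak in both Corin libraries and in neither DMSO library, and the annotated starts from 10877198 to 10877331 showed the same pattern. A further start at 10878969 was under a peak in both Corin libraries and in the second DMSO library. The most distal start, 10866222, was under no peak of any list. Within 500 bp of the main start site, H3K4me2 covered all 1001 bp in each Corin library, against 0 and 283 bp with DMSO, and 7 of 12481 covered promoters (0.0561%) rose by as much. In a window of 1001 bp, a promoter already well covered with DMSO could not rise so far, so this share is a description only. H3K27ac reached this promoter in the first Corin library alone, with 123 bp.

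Upstream of the start, CIITA carried H3K27ac and H3K4me2 in every library of both groups. A region from 6990 to 5154 bp upstream of the main start site held H3K27ac of 1725 and 1609 bp with Corin and 743 and 914 bp with DMSO. H3K4me2 at the same place (10870226 to 10872323) covered 2098 and 1755 bp with Corin and 1334 and 1428 bp with DMSO. These upstream peaks widened with Corin, and the groups did not overlap in either mark. No other H3K27ac peak was called at CIITA in the DMSO libraries. With peaks of a score of at least 100 alone, H3K27ac around the gene 5′ end covered 1725 and 1609 bp with Corin and 318 and 0 bp with DMSO. The second DMSO library thus held the upstream H3K27ac in lower-scoring peaks only.

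Inside the gene, 3 regions were present in both Corin libraries and in neither DMSO library, all in introns of the MANE Select transcript. An H3K27ac region 8163 bp downstream of the start (10885365 to 10885906) had 416 and 450 bp under peaks with Corin. An H3K4me2 region 11137 bp downstream (10888339 to 10889160) had 822 and 598 bp, and another 14398 bp downstream (10891600 to 10892067) had 468 and 427 bp. All 3 were still absent from the DMSO lists and present in the Corin lists when each list was reduced to its top-scoring peaks at the number of the smallest list of its mark. H3K4me2 at the H3K27ac region itself was also found in the second DMSO library, with 345 and 586 bp against 0 and 283 bp. H3K4me3 in the CIITA gene body lay only at its 3′ end, over the promoter of the neighbouring gene DEXI, with 1333 and 1398 bp under Corin and 1294 and 1625 bp under DMSO, and there the groups overlapped.

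**Figure D2:**
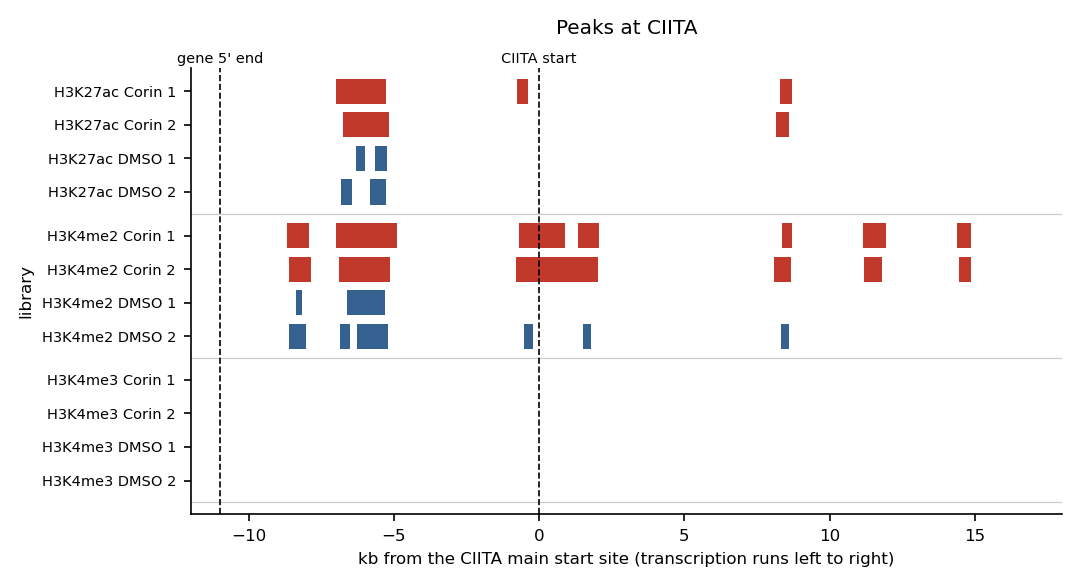
Bars are the peaks of each of the 12 libraries (rows) by distance in kb from the CIITA main start site, with Corin in red and DMSO in blue; dashed lines mark the start and the gene 5′ end. The upstream peaks are in all 8 H3K27ac and H3K4me2 libraries, and the start is covered by H3K4me2 in the 2 Corin libraries. No H3K4me3 peak falls in the stretch drawn, which does not reach DEXI.

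The 8 HLA genes of the set lie on chromosome 6, in a span where the classical class II genes carried almost no peaks. From HLA-DRA to HLA-DQB1 (32439878 to 32668383, 228.5 kb with 5 protein-coding genes) there were 0 H3K27ac and 0 H3K4me3 peaks in any list, and H3K4me2 had 1, 1, 1 and 0 peaks in the libraries Corin 1, Corin 2, DMSO 1 and DMSO 2. HLA-DPA1 and HLA-DPB1 (33064569 to 33089696) had 0 peaks of any mark in any library. HLA-DRA, HLA-DRB1, HLA-DQB1, HLA-DPA1 and HLA-DPB1, which encode chains of the 3 classical class II molecules, thus showed no peak within 10 kb of their starts or over their bodies. With HLA-DQA1, 6 of the 10 had no peak within 10 kb of the main start site, as did 28.1% of all genes.

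The nearest peak of any list was an H3K4me2 peak for each of these 5 genes. It lay 170 kb from the main start of HLA-DRA, 20.2 kb from HLA-DRB1, 43.2 kb from HLA-DQB1, 33.1 kb from the HLA-DPA1 start and 37.9 kb from HLA-DPB1. The nearest H3K27ac peak to HLA-DRA was 243 kb away and the nearest to HLA-DRB1 was 248 kb away. The 5 class II genes outside the set (HLA-DOA, HLA-DOB, HLA-DRB5, HLA-DQA2 and HLA-DQB2) also had none within 10 kb, at 0 of 5 in each mark. Of all genes, 46.8% had no H3K27ac, 28.9% no H3K4me2 and 43.1% no H3K4me3 peak around the main start site. The lists do not show whether reads could be mapped at these or at the classical class II genes, and this was not tested.

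HLA-DQA1, the alpha chain of the DQ molecule, had no peak at its own main start site, but 1 H3K4me2 region stood upstream of it in both Corin libraries. That region (32622440 to 32623407) lies 13999 to 14966 bp upstream of the main start site at 32637406, outside any protein-coding gene body, and entered the window through the more distal gene 5′ end. It covered 873 and 901 bp with Corin and 0 bp in both DMSO libraries. The peaks had scores of 159 and 151, higher than 33.8% and 33.1% of their lists, and remained at the matched number of peaks. No H3K27ac or H3K4me3 lay there. The 1 H3K4me2 peak of a DMSO library in the span, 271 bp at 32610019 to 32610289, lay between HLA-DRB1 and this region.

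**Figure D3:**
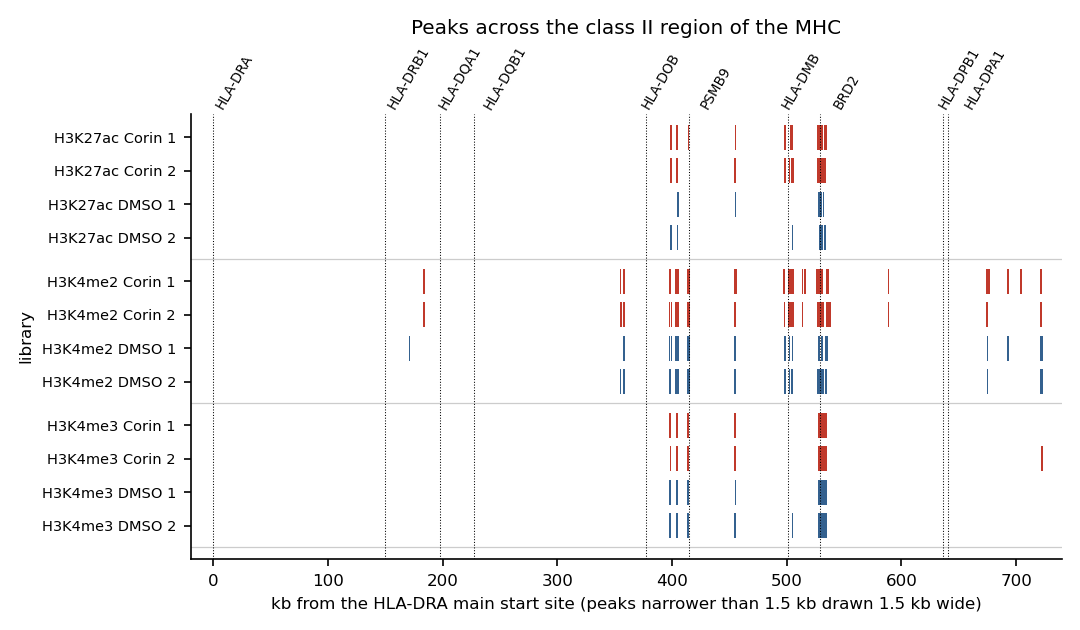
Bars are the peaks of the 12 libraries (rows, Corin in red, DMSO in blue) by distance in kb from the HLA-DRA main start site; dotted lines are main start sites, and narrow peaks are drawn at 1.5 kb so that they can be seen. The stretch around HLA-DRA, HLA-DRB1, HLA-DQA1 and HLA-DQB1 has 3 H3K4me2 peaks in all and no other mark, and peaks cluster around PSMB9, HLA-DMB and BRD2.

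Sequences are shown for 4 promoters, to set those that carried a mark (CD74, HLA-DMA and HLA-DMB) beside HLA-DRB1. HLA-DRB1 has no peak but holds both motifs searched, as HLA-DMA and HLA-DMB do. In CD74 only the letters of the Y box were matched. The sequences are the 250 bases before the RefSeq start, 5′ to 3′ on the gene's own strand, from the RefSeq promoter table on GRCh38.p14, which had entries for 8 of the 10 genes. Capitals mark TGATGATG, the core of the X box where the sites of RFX and CREB meet, and ATTGG, the Y box bound by NF-Y. Both were searched on both strands, so a minus-strand Y box reads CCAAT. Only exact matches were searched. A promoter without a match may still hold a variant of either box.
CD74 (chr5:150412911-150413160, minus strand): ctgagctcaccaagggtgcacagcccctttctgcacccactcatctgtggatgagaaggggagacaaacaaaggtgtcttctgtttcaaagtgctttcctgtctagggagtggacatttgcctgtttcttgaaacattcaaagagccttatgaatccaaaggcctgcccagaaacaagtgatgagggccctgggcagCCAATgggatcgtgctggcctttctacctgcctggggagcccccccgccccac
HLA-DMA (chr6:32953098-32953347, minus strand): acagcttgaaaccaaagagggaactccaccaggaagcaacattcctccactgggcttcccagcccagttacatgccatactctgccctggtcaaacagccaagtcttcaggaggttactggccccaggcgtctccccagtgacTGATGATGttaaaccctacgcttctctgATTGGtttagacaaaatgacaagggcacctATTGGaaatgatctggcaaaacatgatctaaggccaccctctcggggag
HLA-DMB (chr6:32941029-32941278, minus strand): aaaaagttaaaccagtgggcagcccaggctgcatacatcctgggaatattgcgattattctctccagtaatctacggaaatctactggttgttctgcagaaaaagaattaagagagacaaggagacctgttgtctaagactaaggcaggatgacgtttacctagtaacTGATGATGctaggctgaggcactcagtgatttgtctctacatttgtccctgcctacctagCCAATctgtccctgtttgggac
HLA-DRB1 (chr6:32589849-32590098, minus strand): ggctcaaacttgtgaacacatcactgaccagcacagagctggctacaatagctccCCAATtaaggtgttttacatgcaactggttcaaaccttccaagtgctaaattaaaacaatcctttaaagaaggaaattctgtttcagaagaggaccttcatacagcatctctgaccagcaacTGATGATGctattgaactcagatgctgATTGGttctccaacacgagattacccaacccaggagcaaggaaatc

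TGATGATG was found in 279 of 35116 promoters of this table (0.795%), and in HLA-DRB1, HLA-DMA and HLA-DMB among the 9 entries of the set. Its first base lay 73 bases before the start in HLA-DRB1, 107 in HLA-DMA and 82 in HLA-DMB. ATTGG was found in 32.0% of all promoters and in 7 of the 9 entries; the 2 entries without it are both of HLA-DPA1. Both motifs together were found in 0.302% of all promoters and in 3 of the 9 entries. These letters did not separate the promoters with a mark from those without. The HLA-DRB1 stretch was covered by 0 bp in all 12 lists, while the HLA-DMA and HLA-DMB stretches were each covered over 250 bp by H3K4me2 in both Corin libraries and over 0 bp in both DMSO libraries. The CD74 stretch was covered over 250 bp by H3K4me2 in all 4 libraries and by H3K27ac over 250 bp in both Corin libraries and 0 bp with DMSO.

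HLA-DMB, the beta chain of the peptide exchanger (chromosome 6, minus strand, 32934629 to 32941028), had the largest H3K27ac rise of the set around a main start site. H3K27ac within 10 kb covered 2716 and 2169 bp with Corin and 0 and 306 bp with DMSO, a difference of 2289.5 bp (SD 443), a rise equalled or exceeded by 4.09% of covered genes. H3K4me2 covered 4781 and 4899 bp with Corin and 2286 and 2792 bp with DMSO, a difference of 2301.0 bp (SD 367), a rise equalled or exceeded by 1.03%. Both Corin libraries lay well above both DMSO libraries in both marks. For H3K4me2 the Corin libraries were close to each other. For H3K27ac they lay further apart than the DMSO libraries, and at the matched number of peaks they covered 2716 and 1463 bp. H3K4me3 was at 0 bp in both Corin libraries and in the first DMSO library, and covered 202 bp in the second, in a peak whose score exceeded 0.37% of its list.

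Most of the signal at HLA-DMB lay not over its start but just upstream. A region from 1793 to 4910 bp upstream of the start (32942821 to 32945938) held 3118 and 3060 bp of H3K4me2 with Corin and 1672 and 2096 bp with DMSO. Its Corin peaks scored above 99.6% and 98.7% of their lists. H3K27ac at that place (32942999 to 32945708) covered 2366 and 1652 bp with Corin, 0 bp in the first DMSO library and 306 bp in the second, and with the matched number of peaks 2366, 1463, 0 and 306 bp. The site was thus marked by H3K4me2 in all 4 libraries and by H3K27ac in 3 of 4, the exception being a DMSO library.

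At the start itself, the H3K4me2 region from 32940824 to 32941819 covered 900 and 987 bp with Corin and 233 and 400 bp with DMSO. The start base, 32941028, was under this region's peaks in both Corin libraries and in neither DMSO library. H3K27ac came within 391 bp of the start in the second Corin library alone. An H3K27ac region over exon 3 of HLA-DMB (32937318 to 32937678) had 350 and 213 bp with Corin and 0 bp in both DMSO libraries, but the second Corin library lost it at the matched number of peaks.

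HLA-DMA, the alpha chain of the same dimer (minus strand, 32948613 to 32969094), was the only gene of the 10 with a promoter peak in both Corin and neither DMSO library, over all peaks and at the matched number. Within 500 bp of its main start site at 32953097, H3K4me2 covered 574 and 669 bp with Corin and 0 bp in both DMSO libraries, where 0.857% of 12481 covered promoters gained H3K4me2 in this way. At the matched number of peaks the HLA-DMA promoter still did so, and 0.391% of covered promoters did. With peaks of a score of at least 100 alone, the CIITA promoter did so as well, with 1001 bp of H3K4me2 in both Corin libraries and 0 bp in both DMSO libraries. For H3K27ac and H3K4me3 no promoter of the 10 did, where 7.82% and 0.682% of covered promoters did. The peaks made up a region of 740 bp (32952728 to 32953467) without H3K27ac or H3K4me3 in any library. Within 10 kb of the main start site, H3K27ac covered 2268 and 1652 bp with Corin and 0 and 306 bp with DMSO, but this is the region upstream of HLA-DMB, which lies between the genes and was shared by both windows.

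The window around the HLA-DMA gene 5′ end gave other values, because the longest HLA-DMA models start at the promoter of the neighbouring gene BRD2. H3K27ac there covered 7182 and 6106 bp with Corin and 3479 and 4317 bp with DMSO, H3K4me2 covered 9078 and 8529 against 7378 and 7727 bp, and H3K4me3 covered 8036 and 8038 against 7686 and 7767 bp. This window held 56.2% of all H3K27ac bp of the 10 genes with Corin and 77.2% with DMSO, and 92.5% and 93.5% of the H3K4me3. The H3K4me3 region (32967218 to 32975331) lies over the main start of BRD2. Around the HLA-DMA main start site the H3K4me3 difference was -101.0 bp, in place of 310.5 bp, with the groups overlapping.

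**Figure D4:**
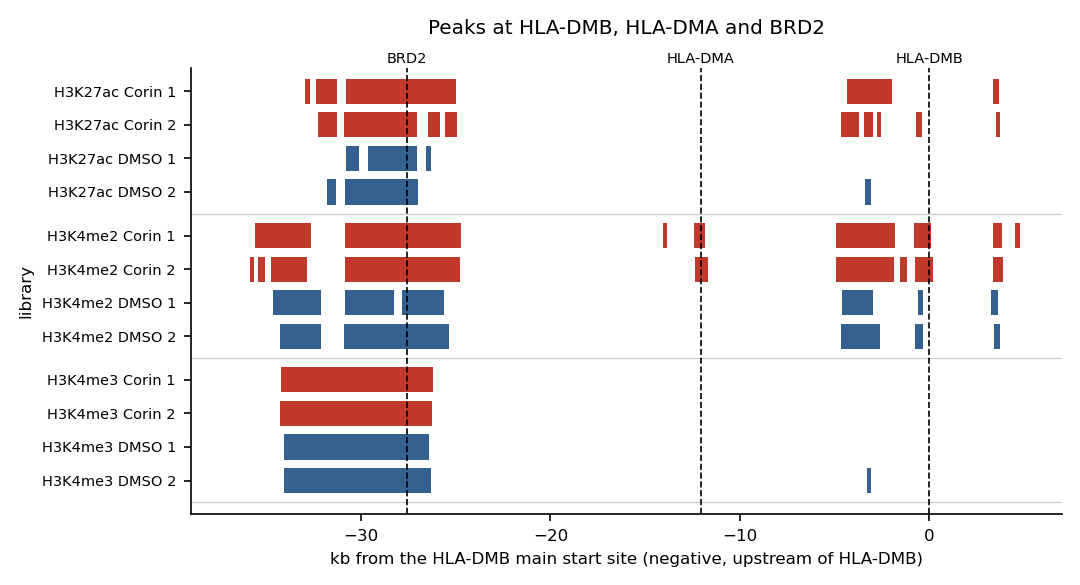
Bars are the peaks of the 12 libraries (rows, Corin in red, DMSO in blue) by distance in kb from the HLA-DMB main start site, with upstream to the left; dashed lines mark the main starts of BRD2, HLA-DMA and HLA-DMB. H3K4me2 covers the HLA-DMA and HLA-DMB starts in the 2 Corin libraries, H3K27ac upstream of HLA-DMB is wide in both Corin libraries and 306 bp or 0 with DMSO, and the broad H3K4me3 lies at BRD2.

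CD74, the invariant chain gene (chromosome 5, minus strand, 150401637 to 150412969), was the only gene of the 10 with H3K4me3 near its main start site in all 4 libraries. H3K4me3 covered 644 and 665 bp with Corin and 286 and 584 bp with DMSO, a difference of 219.5 bp with an SD of 211. That difference is about as large as its SD, and the DMSO libraries lay further apart than the group means. H3K4me2 formed 1 region over the start (150409976 to 150413514) that covered 3504 and 3281 bp with Corin and 2356 and 2552 bp with DMSO, a difference of 938.5 bp (SD 210). Within 500 bp of the main start the groups overlapped, at 1001, 847, 927 and 993 bp, so that the rise lay outside the promoter itself. In each Corin library it was 1 continuous peak, and in each DMSO library it was split into 2 peaks.

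H3K27ac at CD74 (150412174 to 150413279) covered 1106 and 1043 bp with Corin and 0 and 333 bp with DMSO, a difference of 908.0 bp (SD 240). The main start base, 150412910, was under H3K27ac in both Corin libraries and in neither DMSO library. Within 500 bp of the start, H3K27ac covered 870 and 807 bp against 0 and 333 bp, the only promoter of the 10 called higher for this mark, where 39.5% of 8898 covered promoters were higher and 1.7% rose by as much. A promoter already well covered with DMSO could not have risen so far in that window. With the matched number of peaks the second Corin library lost its CD74 peak, whose score of 94 was above 32.6% of its list, and the groups then overlapped at 1106, 0, 0 and 333 bp.

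**Figure D5:**
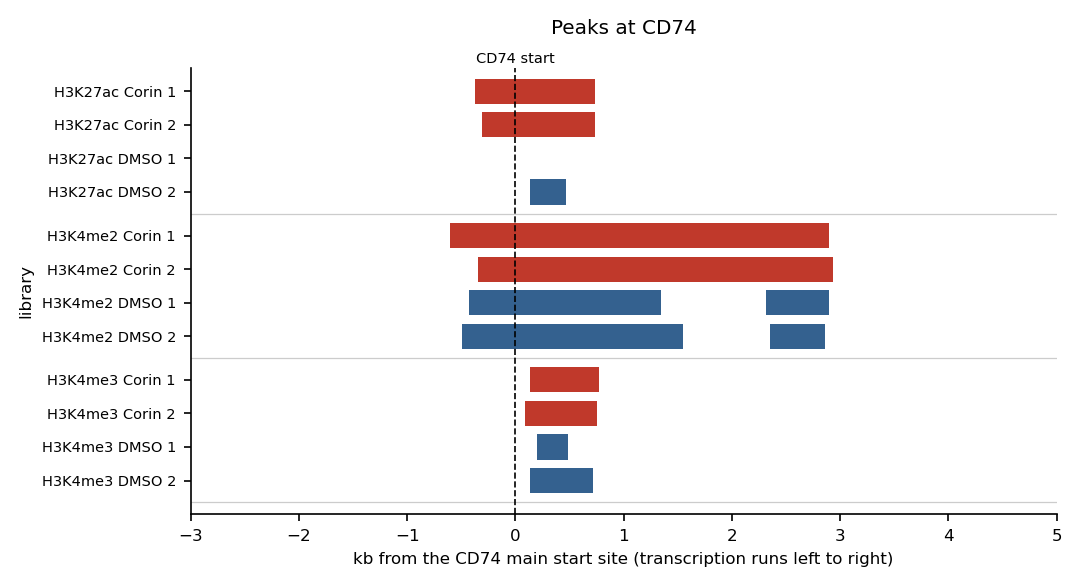
Bars are the peaks of the 12 libraries (rows, Corin in red, DMSO in blue) by distance in kb from the CD74 main start site, in the direction of transcription. H3K4me2 is 1 peak per Corin library and 2 per DMSO library, H3K27ac is absent in the first DMSO library, and H3K4me3 starts just downstream of the start in all 4 libraries.

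The promoters with marks thus fell into different states. CD74 carried H3K4me2 and H3K4me3 in both DMSO libraries. HLA-DMB carried H3K4me2 within 500 bp of its start in both DMSO libraries (149 and 149 bp) and more with Corin (609 and 705 bp), without H3K4me3. CIITA carried H3K4me2 in 1 of 2 DMSO libraries and HLA-DMA in neither, and both carried it with Corin in both libraries, again without H3K4me3. H3K4me2 within 500 bp was higher with Corin at CIITA, HLA-DMA and HLA-DMB, 3 of the 4 promoters with any, where 10.4% of 12481 covered promoters were higher. HLA-DMA was among the 4 through its Corin peaks alone, so its place in the count is no support for a rise. H3K4me3 was higher at CD74, the only promoter of the 10 with any, with 367 and 408 bp against 286 and 366 bp, where 10.0% of 10415 covered promoters were higher. For H3K4me2, rises at least as large were seen at 0.0561%, 0.296% and 0.641% of covered promoters for CIITA, HLA-DMA and HLA-DMB. In a window of 1001 bp, a promoter already well covered with DMSO could not rise so far. These shares are therefore a description only, in a window added after seeing the data.

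Counted as regions, in the windows and bodies of the 10 genes, there were 11 H3K27ac, 20 H3K4me2 and 4 H3K4me3 regions. Of the H3K27ac regions 2 (18.2%) were in both Corin and neither DMSO library, where 11.5% of all 41587 H3K27ac regions were. That count rested on the settings: it was 1 of 7 at the matched number of peaks (4.49% of all regions), 6 of 11 when at least 50% of a region had to be covered (15.1%), 5 of 10 without the second Corin library (42.5%) and 5 of 11 without the second DMSO library (20.6%). For H3K4me2 it was 4 of 20 (20.0%), where 9.64% of 42429 were (7 of 20 and 13.7% when at least 50% had to be covered), and for H3K4me3 0 of 4, where 1.49% of 12090 were. No region was in both DMSO and neither Corin library, a pattern shown by 0.18%, 0.158% and 0.289% of all regions. In all 4 libraries there were 2 of the 11, 10 of the 20 and 3 of the 4, where 22.8%, 55.6% and 80.8% of all regions were. Several regions of each mark lie nearest to the starts of the neighbouring genes DEXI and BRD2. The H3K4me3 regions in all 4 libraries lay at CD74, DEXI and BRD2. Of the H3K27ac regions in all 4 libraries, that from 32965987 to 32971905 lay over the BRD2 start. Of the 6 gained regions, 3 lay in CIITA, 1 over the HLA-DMA start, 1 in HLA-DMB and 1 upstream of HLA-DQA1. Of the 11 H3K27ac regions 10 overlapped an H3K4me2 region, where 63.7% of all H3K27ac regions did, and 9 of the 20 H3K4me2 regions overlapped H3K27ac, where 55.3% did.

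The factors that bind the class II promoters had peaks in all 7 cases (RFX5, RFXAP, RFXANK, CREB1, NFYA, NFYB and NFYC), where 28.1% of all genes had no peak around the main start site. H3K27ac around the main start sites was higher with Corin at 5 of 7, H3K4me2 at 3 of 7 and H3K4me3 at 0 of 7, where 54.5%, 39.6% and 25.8% of all covered genes were higher. H3K4me3 was lower at RFXAP and NFYB, where 8.37% of covered genes were lower. RFXAP, a subunit of the RFX complex, had 203 and 331 bp of H3K27ac with Corin and 0 bp in both DMSO libraries, so that it was covered through Corin peaks alone, but at the matched number of peaks the second Corin library had none and the groups overlapped. RFX5, the DNA-binding subunit, had 1418 and 858 against 929 and 0 bp, and the groups overlapped. With that number of peaks, the list counted 4 of 7 for H3K27ac and, without NFYC, 2 of 7 for H3K4me2, where 35.0% and 31.1% of all covered genes were higher. The median H3K27ac difference of the list was 617.5 bp beside 445.0 bp over all covered genes.

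The 5 genes counted from the interferon gamma route, which induces CIITA in many cells, had H3K4me2 at 5 of 5 main start windows and H3K27ac at 4 of 5, where 28.9% and 46.8% of all genes had none. H3K27ac was higher with Corin at 3 (IFNGR2, JAK2 and IRF1) and H3K4me2 at 3 (IFNGR1, JAK2 and IRF1), where 54.5% and 39.6% of all covered genes were higher. IRF1, a transcription factor that acts on the interferon-responsive CIITA promoter, had H3K27ac of 1275 and 1242 bp with Corin and 671 and 598 bp with DMSO. JAK2, a receptor-associated kinase of the route, had 2593 and 1767 bp of H3K27ac against 1105 and 1262 bp. H3K4me3 was higher at IFNGR1 and lower at JAK2, where 25.8% of all covered genes were higher and 8.37% lower. At JAK2 it covered 1773 and 1532 bp with Corin and 1935 and 1873 bp with DMSO. Around the gene 5′ ends the counts were 2 of 4 covered genes for H3K27ac and 3 of 4 for H3K4me2, where 54.5% and 39.5% of all covered genes were higher, and IRF1 had no peak there.

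Among 6 genes of endosomal processing and class II turnover, CTSS and IFI30 were the 2 with H3K4me3 around the main start site. H3K27ac was higher with Corin at 1 of 2 covered genes (IFI30), H3K4me2 at 2 of 4 (IFI30 and CTSL) and H3K4me3 at 2 of 2, where 54.5%, 39.6% and 25.8% of all covered genes were higher. IFI30 for H3K27ac and both genes for H3K4me3 were covered through Corin peaks alone, so these genes could not have been lower and the counts are a description only. CTSS, the cathepsin that degrades the invariant chain, had 590 and 593 bp of H3K4me3 with Corin and 0 bp in both DMSO libraries. Its other marks did not separate the groups: H3K27ac covered 1126 and 0 bp with Corin and 257 and 376 bp with DMSO, and H3K4me2 1888 and 1623 against 1324 and 1975 bp. At the matched number its H3K27ac was lower with Corin, at 0 bp in both libraries against the same 257 and 376 bp, where 3.48% of covered genes were lower. IFI30, a thiol reductase of the endosome, had 974 and 648 bp of H3K4me3 with Corin and 0 bp with DMSO, over all peaks. IFI30 was higher in all 3 marks, with H3K27ac at 616 and 266 against 0 and 0 bp and H3K4me2 at 3021 and 2974 against 1792 and 2279 bp. MARCHF1, a ubiquitin ligase that removes class II from the surface, had no peak of any list within 10 kb of its 5′ end or main start site.

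Most of the 11 genes counted from MHC class I and its processing had peaks. H3K4me2 and H3K4me3 were each present around 10 of 11 main start sites, against 4 and 3 of the 10 class II genes and CIITA, and 28.9% and 43.1% of all genes had none. No test of this difference was made. H3K27ac was present at 8 of 11 and higher with Corin at 5, H3K4me2 was higher at 6 of 10 and H3K4me3 at 2 of 10, where 54.5%, 39.6% and 25.8% of all covered genes were higher. At the matched number of peaks the H3K27ac count fell from 5 to 0, where 35.0% of all covered genes were higher, and the groups overlapped at HLA-E, TAP2, TAPBP, PSMB8 and NLRC5. B2M, the light chain of class I, was then lower, at 1002 and 682 against 1366 and 1338 bp, where 3.48% of covered genes were lower. The H3K4me2 and H3K4me3 counts of this list were 6 and 2 at the matched number as well, where 31.1% and 24.6% of covered genes were higher. TAP1, TAP2, PSMB8 and PSMB9 are neighbours whose windows share peaks, so these counts are not over separate loci. HLA-B and HLA-C, which encode classical class I heavy chains, had no H3K27ac peak in any library around the main start site. Within 500 bp of that site, HLA-B had H3K4me2 of 300 and 291 bp with Corin and 0 and 619 bp with DMSO. HLA-C had 700 and 513 bp there with Corin and 139 and 254 bp with DMSO. NLRC5, the class I counterpart of CIITA, was higher in all 3 marks, though its H3K27ac groups overlapped at the matched number of peaks (0 and 2103 against 803 and 545 bp). Its H3K4me3 covered 1434 and 1418 bp with Corin and 1079 and 1098 bp with DMSO.

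Genes whose bp under peaks were most like those of a member, by the mean absolute difference over the 12 libraries and 3 marks around the gene 5′ end, were sought for 3 genes. For CIITA they were CXCR2 at 167.7 bp, LPAR5 at 168.2 bp and JRK at 169.0 bp. For CD74 they were ZNF219 and TMEM253, both at 202.1 bp, and DIXDC1 at 223.7 bp. HLA-DRA had no peak in any list, so no likeness could be ranked.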

How the data were processed

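CUT&RUN peak lists of 12 libraries (3 marks, 2 Corin and 2 DMSO libraries each) were used. The submitters' processing notes name Trim Galore, Bowtie2, Picard and MACS2 with the builds GRCh38 and hg38, without versions or roles; the control and the calling threshold are not given in the sources used here. There is 1 deposited list per library. Each peak has a score from the authors, deposited as whole numbers from 50 up with no definition given; here it ranked or filtered the peaks of its own list and nothing more. No peak of 292523 ended past an hg38 chromosome end. Positions are on hg38, counted from 1.

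The bp under peaks was summed per library in windows of 10000 bp either side of each gene's 5′ end, and again around the MANE Select start, within 500 bp of it and over gene bodies, for all 20046 protein-coding genes (Python 3.11.15, numpy 2.4.6, pandas 2.3.3). A covered gene had at least 1 peak of the mark in the window. The 4 lists of a mark were merged into regions, and a peak counted for a region from 1 bp of overlap. Means are given with the SD of the difference, taken from the spread within both groups. The coverage step was tested on simulated peaks. Alternatives were the top-scoring peaks at a matched number (17599, 30896 and 11104), a score of at least 100, 5 kb windows, gene bodies, the MANE Select start, coverage of at least 50% of a region, leaving out each library, and a replicate block; the 500 bp promoter and the set without HLA-DMA and HLA-DMB were added after seeing the data. Named genes are the 10 members, genes of the pathway lists whose groups did not overlap in at least 1 mark or that had no peak, neighbours with a closer start, and the 3 genes most like CIITA, CD74 and HLA-DRA, leaving out overlapping windows. RFX5, RFXANK and HLA-B fall outside this rule and were named after their values were seen. Of the genes in the pathway lists, 2 are not reported here and were left out of the counts. The members and lists were chosen with earlier results of these data known. No interval that needs read depth was computed.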

Additional observations from a re-analysis of the deposited data

How the results depend on the processing

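Every summed difference kept its direction under the alternatives run. The bp under H3K27ac peaks in the merged windows of the 10 genes rose by 6782 with Corin. It was 4906 at the matched number of peaks, 4089 over gene bodies, 4664 around the MANE Select starts, 788.5 within 500 bp of them and 2374.5 around them without HLA-DMA and HLA-DMB. For H3K4me2 the rise was 6265, and 4358.5 in 5 kb windows, 7933.5 over gene bodies, 1953 within 500 bp and 4436 without HLA-DMA and HLA-DMB. Leaving out each library gave 5881 to 7683 for H3K27ac, 5501.5 to 7028.5 for H3K4me2 and 138.5 to 719.5 for H3K4me3, whose main value was 429. Around the MANE Select starts the H3K4me3 difference was 118.5 (SD 354) and the groups overlapped. Within 500 bp of the start, 1 gene was higher for H3K27ac, 3 for H3K4me2 and 1 for H3K4me3. Of all covered promoters 39.5%, 10.4% and 10.0% were higher. H3K4me3 also gave 1 around the MANE Select starts, where 25.8% of covered genes were higher. Gained H3K27ac regions numbered 1 at the matched number, 6 when 50% was required to be covered, and 2 to 5 with a library left out (5 without Corin 2 or DMSO 2), where 4.49%, 15.1% and 16.4% to 42.5% of all regions were gained; H3K4me2 gave 7 (13.7%) at 50% and 4 to 6 (12.8% to 22.6%). Of 130 alternatives for single genes, leaving out the block, 100 moved by less than the replicate spread and 28 by more. Among these, HLA-DQA1 H3K4me2 (887 bp) fell to 0 over the body, around the MANE Select start and within 500 bp of it, and HLA-DMA H3K27ac (2746 bp) and H3K4me3 (310.5 bp) to 0 within 500 bp. The other 2 reversed: CD74 H3K4me2 within 500 bp (-36 bp) and HLA-DMA H3K4me3 around the MANE Select start (-101 bp). The cause was not tested.

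Deviations of same-numbered libraries correlated at 0.285, 0.31 and 0.228 over genes, but with 2 pairs a mark and no label on what a number shares, the libraries were not taken as paired. A replicate block cannot move a mean difference here (6782, 6265 and 429 bp). Its SD was 2440, 1731 and 395 bp, against 1727, 1261 and 411 without it, and counting by pairs gave 4, 5 and 2 genes and 2, 4 and 0 gained regions. The shares of all genes and regions called by pairs are not given here, so these counts are a description only. Unknown read depth, 2 libraries a group and unequal list lengths limit all values.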
